A study of Mus musculus with 8 samples.

Results

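The 10 genes Ucp1, Dio2, Elovl3, Kcnk3, Pank1, Ppargc1a, Prdm16, Ebf2, Zic1 and Lhx8 mark brown adipocytes or serve their heat production. They were chosen by name as known brown fat genes, with earlier results of these data in view, and each was found as 1 row among the 31053 genes of the count table. Cytochrome c oxidase isoforms and Cidea were left out of the 10 and enter only as other brown fat genes. The samples were labelled Brown Adipose Tissue and came from C57BL6/J mice, with 4 libraries from wild-type mice (WT) and 4 from mice labelled Cd36KO. Cd36 encodes a membrane receptor that takes up long-chain fatty acids and modified lipoproteins. The genotype label does not name the deleted cells. The study describes both germline Cd36 knockout mice and mice that carry floxed Cd36 with a Csf1r-driven Cre, which deletes it in myeloid cells, and it ascribes the brown fat transcriptome to the myeloid deletion. The labels give an age of 8 weeks and no treatment for either group. The study gives the same age for this transcriptome, and its methods give a later age at sacrifice for the line with the myeloid deletion.

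Brown adipocytes burn fatty acids in mitochondria and release the energy as heat. UCP1 lets protons leak across the inner mitochondrial membrane, so that respiration runs without making ATP. Noradrenaline from sympathetic nerves drives this through beta-adrenergic receptors and cyclic AMP, which also raises transcription of Ucp1, Dio2 and Ppargc1a. PRDM16 and EBF2 set the brown adipocyte fate, and ZIC1 and LHX8 are used as markers that set classical brown fat apart from white and beige fat.

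The libraries held 2679785 to 4097953 counts each, and the group totals did not differ beyond the spread between libraries (exact two-sided permutation test, p = 0.914). Cd36 was at 2796, 2958, 3505 and 2412 normalised read counts in WT replicates 1 to 4, and at 2109, 2384 and 1930 in Cd36KO replicates 2 to 4 and 1926 in a Cd36KO library that carries no replicate number. All 4 Cd36KO values lay below all WT values, yet Cd36 remained abundant (log2 fold change -0.48 ± 0.16 SE, DESeq2 adjusted p = 0.0602). By CPM the groups overlapped, with WT replicate 4 at 705.9 and Cd36KO replicate 3 at 753.8. They also overlapped per 1000 counts of pan-adipocyte markers. There WT replicates 1 to 4 were at 32.34, 17.37, 17.21 and 12.33 and Cd36KO at 13.48 to 22.12. On that scale only WT replicate 1 lay above all Cd36KO libraries, and without it the ranges lay across each other. A cell type label of stromal vascular fraction, the non-adipocyte cells of fat, was not matched by the data, since pan-adipocyte markers summed to 31623 to 63763 CPM (counts scaled to the library total) in WT and 34069 to 44504 CPM in Cd36KO. The mice are described as male. Xist, the RNA of the inactive X chromosome, had 772 to 1588 counts in every library, and 4 Y-linked genes together had at most 3 counts in a library. These counts do not match the description as male, in either group. WT replicate 1 stood apart from the other 3 WT libraries. Its 16 skeletal muscle markers summed to 30133 CPM against 333.6 to 4913 CPM in the other WT libraries and 55.94 to 2908 CPM in Cd36KO. Its 15 white fat markers summed to 319.7 CPM against 1590 to 1849 CPM in the other WT libraries and 243.8 to 366.8 CPM in Cd36KO. Where a member's fold change rests on this library, it is given with and without it. For other results this is done only in part.

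The level of each gene per length was taken as CPM per kilobase of merged exon, a scale on which genes can be set against each other. Ucp1 was the highest of the 10 in WT, at 1067 ± 217 CPM per kilobase (SD, n = 4), followed by Kcnk3 at 195.4 ± 40.4 and Pank1 at 50.4 ± 5.94 CPM per kilobase. Each of these 3 was above the next gene in all 4 WT libraries and the ranges did not overlap. Dio2 (17.6 ± 12.8), Ppargc1a (16.8 ± 6.35) and Ebf2 (16.4 ± 5.24 CPM per kilobase) formed a middle group in which neighbours did not differ beyond their spread. The Dio2 mean was raised by WT replicate 1, at 212.7 CPM before division by length, against 57.04 to 78.44 CPM in WT replicates 2 to 4. Dio2 was above Ppargc1a in 2 of 4 WT libraries, and Ppargc1a above Ebf2 also in 2. Prdm16 (2.96 ± 1.02), Elovl3 (2.61 ± 1.60), Lhx8 (1.68 ± 0.788) and Zic1 (1.54 ± 0.574 CPM per kilobase) lay lowest, and neighbours in this order again overlapped. In Cd36KO the order of means from Ucp1 at 1797 ± 307 CPM per kilobase down to Ebf2 at 19.8 ± 4.56 was as in WT. Within the middle group this match rests on WT replicate 1, the highest WT library for Dio2 and Ppargc1a. Below it, Elovl3 (5.69 ± 6.19) stood above Prdm16 (4.81 ± 0.977) and Zic1 (1.52 ± 0.580) above Lhx8 (0.964 ± 0.748 CPM per kilobase), with overlapping ranges within both pairs. Without division by length, 5 of the 10 genes took another place in the WT order.

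**Figure D1:**
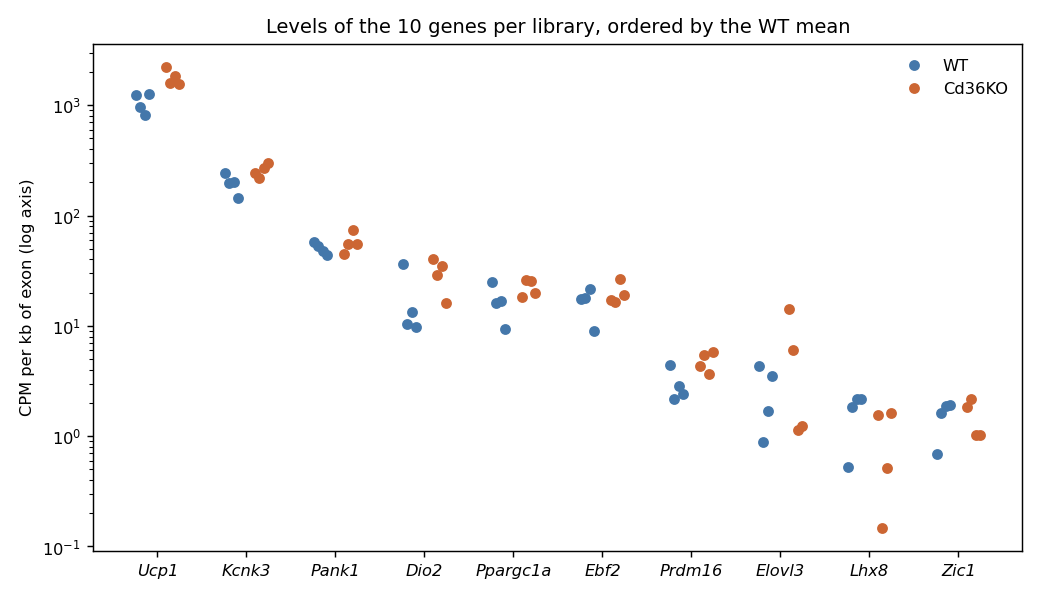
Level of the 10 genes in CPM per kilobase of merged exon (log axis), with a point for each of the 4 WT and 4 Cd36KO libraries. Ucp1, Kcnk3 and Pank1 stand clear of the rest in both groups, while the points of the 4 lowest genes run into each other in WT.

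Ucp1 was the only member whose change passed the threshold. It encodes the uncoupling protein and lies on chromosome 8 (chr8:83290352-83298452, plus strand, GRCm38). WT replicates 1 to 4 had 5527, 4598, 4235 and 7028 normalised counts. The unnumbered Cd36KO library had 12313, and Cd36KO replicates 2 to 4 had 8015, 9449 and 7938. Every Cd36KO library was above every WT library, and the lowest Cd36KO value lay close to the highest WT value. Mean counts rose from 5347 ± 1246 to 9429 ± 2044 (SD, n = 4 libraries a group), a change of 0.82 ± 0.20 (SE) on the log2 scale or 1.76-fold, with a 95% interval of 0.42 to 1.22 in log2 (DESeq2, adjusted p = 0.00843). The exact two-sided permutation test gave p = 0.0286, the smallest value that 4 against 4 libraries allow. With edgeR's quasi-likelihood test the adjusted p was 0.126. In DESeq2 it was 0.0547 without WT replicate 2, 0.0581 without WT replicate 3 and 0.0610 without the unnumbered Cd36KO library, and 0.0043 without WT replicate 1. Set against 1000 counts of pan-adipocyte markers, the ratio of Cd36KO to WT was 1.96 and the groups overlapped, because WT replicate 1 stood at 63.95 and 2 Cd36KO libraries at 59.14 and 57.07 (exact permutation test, p = 0.0857). In bulk tissue, fewer brown adipocytes and less RNA of a gene per brown adipocyte cannot be told apart, which holds for every member in both directions.

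Dio2 encodes the deiodinase that turns thyroxine into active thyroid hormone inside the brown adipocyte, and lies on chromosome 12 (chr12:90724552-90738438, minus strand). In WT it was at 581.3 normalised counts in replicate 1 and at 175.8, 250.5 and 194.9 in replicates 2 to 4. In Cd36KO it was at 792.2 in the unnumbered library and at 522.4, 645.4 and 294.4 in replicates 2 to 4. In all, 3 of the WT libraries lay below all Cd36KO libraries, whereas WT replicate 1 lay within their range. The log2 fold change was 0.91 ± 0.36 SE (95% interval 0.19 to 1.62) and did not pass the threshold (DESeq2, adjusted p = 0.163). Without WT replicate 1 it was 1.44, with an adjusted p of 1.69e-05. That library also carried the low white fat and high muscle marker sums given above, and fits with a score of each are given with the marker values of the other tissues.

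Elovl3, an elongase of very long-chain fatty acids that is switched on in active brown fat (chr19:46131897-46135694, plus strand), was near the limit of detection. Raw counts ran from 6 to 86 over the 8 libraries. WT libraries had 23.47, 5.10, 10.59 and 23.74 normalised counts, and Cd36KO libraries had 95.82 in the unnumbered library and 36.82, 7.16 and 7.63 in replicates 2 to 4. In each group 2 libraries were at or below 10.59, and 1 Cd36KO library stood far above the rest. The log2 fold change was 1.22 ± 0.71 SE (adjusted p = 0.413), and it was 0.11 without the unnumbered Cd36KO library.

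Kcnk3 encodes a 2-pore potassium channel that is a marker of brown and beige adipocytes and lies on chromosome 5 (chr5:30588170-30625271, plus strand). WT replicates had 2621, 2275, 2558 and 1941 normalised counts, against 3270 in the unnumbered Cd36KO library and 2697, 3360 and 3717 in Cd36KO replicates 2 to 4. The groups did not overlap, with the highest WT and the lowest Cd36KO value next to each other. Mean counts were 2349 ± 310.7 and 3261 ± 422.6 (SD, n = 4 libraries a group), and the log2 fold change was 0.47 ± 0.16 SE (95% interval 0.17 to 0.78). The adjusted p of 0.0680 missed the threshold (DESeq2), and the exact permutation p was 0.0286. Without WT replicate 1 the log2 fold change was 0.53 with an adjusted p of 0.0417. Per 1000 pan-adipocyte counts the ratio was 1.52 with overlapping groups (exact permutation test, p = 0.171). This overlap came from WT replicate 1, at 30.32. WT replicates 2 to 4 were at 13.36, 12.56 and 9.93, below the Cd36KO libraries at 19.90 to 31.18.

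Pank1 encodes a pantothenate kinase, the first step of coenzyme A synthesis (chr19:34806940-34879455, minus strand). It was the steadiest member in WT, at 1299, 1267, 1269 and 1232 normalised counts, with a coefficient of variation of 2.15%. Cd36KO libraries spread more widely, from 1245 in the unnumbered library to 1405, 1932 and 1418 in replicates 2 to 4, a coefficient of variation of 19.9%. Its log2 fold change of 0.24 ± 0.16 SE did not pass the threshold (DESeq2, adjusted p = 0.494; 95% interval -0.07 to 0.56).

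**Figure D2:**
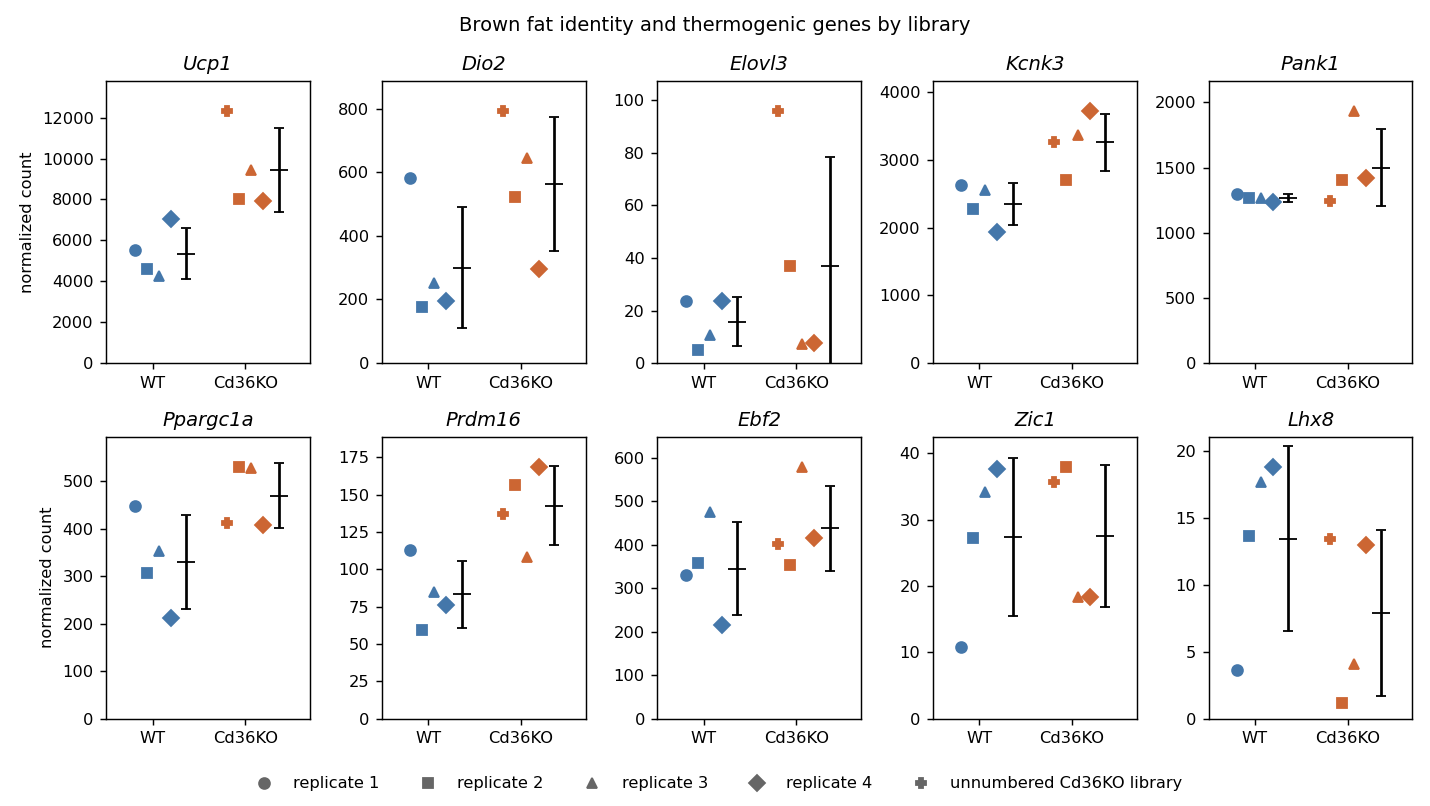
Normalised read counts of the 10 genes in each of the 4 WT and 4 Cd36KO libraries, with the mean and SD of each group (n = 4); each panel has its own axis from 0, and the bar of Elovl3 in Cd36KO is cut at 0. On this scale Ucp1 and Kcnk3 are the members whose groups do not overlap, and WT replicate 1 is the highest WT library for Dio2, Ppargc1a, Prdm16, Kcnk3 and Pank1.

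The 3 promoters shown here are those of the members named above as transcribed in response to cyclic AMP. They are 300-base windows from RefSeq on GRCm38.p6, from 250 bases before to 50 after the start site, 5′ to 3′ on the gene's strand, with TGACG or its reverse complement CGTCA in capitals; this is the core of the cyclic AMP response element, and TGACGTCA is its full form. They lie at chr8:83290098-83290397 (Ucp1, plus), chr12:90738989-90739288 (Dio2, minus) and chr5:51567676-51567975 (Ppargc1a, minus).
Ucp1: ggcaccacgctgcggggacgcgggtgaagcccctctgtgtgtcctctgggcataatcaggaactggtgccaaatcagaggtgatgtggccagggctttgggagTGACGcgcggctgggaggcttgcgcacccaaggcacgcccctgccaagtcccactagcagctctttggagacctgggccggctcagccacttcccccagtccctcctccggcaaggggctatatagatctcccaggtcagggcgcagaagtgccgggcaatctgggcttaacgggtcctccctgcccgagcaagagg
Dio2: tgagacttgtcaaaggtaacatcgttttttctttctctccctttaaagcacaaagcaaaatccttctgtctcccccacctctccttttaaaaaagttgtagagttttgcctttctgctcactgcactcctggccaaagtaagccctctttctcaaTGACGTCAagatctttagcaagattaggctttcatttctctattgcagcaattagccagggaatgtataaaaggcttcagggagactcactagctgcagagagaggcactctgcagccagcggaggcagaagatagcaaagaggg
Ppargc1a: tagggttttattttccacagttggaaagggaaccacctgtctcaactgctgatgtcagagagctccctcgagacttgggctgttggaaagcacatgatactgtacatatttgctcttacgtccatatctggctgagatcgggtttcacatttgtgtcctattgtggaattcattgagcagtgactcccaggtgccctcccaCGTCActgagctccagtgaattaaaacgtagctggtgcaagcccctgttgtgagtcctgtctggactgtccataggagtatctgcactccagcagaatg
The core stood at -147 to -143 in Ucp1 and at -49 to -45 in Ppargc1a, and Dio2 held the full form at -95 to -88. A promoter was found in RefSeq's table for 7 of the 10 members, with 8 windows in all, and only these 3 held TGACG on either strand. Of all 32851 promoters of this length, 20.8% held TGACG on either strand and 1.79% held TGACGTCA. The Ucp1 window also held AGGTCA, a nuclear receptor site found on either strand in 16.3% of all promoters, at -14 to -9. TATAAA was found in Dio2 and Pank1, against 13.6% of all promoters, again counted on either strand. No binding was measured here, so a match describes only the letters. Among the 3 genes, the log2 fold changes were 0.82 for Ucp1, 0.91 for Dio2 and 0.51 for Ppargc1a, and only that of Ucp1 passed the threshold.

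Ppargc1a encodes PGC-1alpha, the coactivator that drives mitochondrial biogenesis and Ucp1 transcription (chr5:51454250-51567726, minus strand). WT replicates had 448.6, 307.5, 354.0 and 211.7 normalised counts, and Cd36KO libraries had 412.2 in the unnumbered library and 530.5, 527.8 and 408.8 in replicates 2 to 4. In all, 3 WT libraries lay below all Cd36KO libraries, and WT replicate 1 lay among them. The log2 fold change was 0.51 ± 0.23 SE (95% interval 0.06 to 0.95; DESeq2 adjusted p = 0.231). Without WT replicate 1 it was 0.69 with an adjusted p of 0.0334.

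Prdm16 encodes the zinc finger coregulator that holds precursors to the brown fate (chr4:154316125-154636873, minus strand). WT replicates had 112.8, 59.46, 84.68 and 76.17 normalised counts, and Cd36KO libraries had 137.0 in the unnumbered library and 156.5, 108.4 and 168.6 in replicates 2 to 4. The only overlap was between WT replicate 1 and Cd36KO replicate 3. The log2 fold change was 0.78 ± 0.25 SE (95% interval 0.29 to 1.27) with an adjusted p of 0.0572 (DESeq2), and the exact permutation p was 0.0571. Without WT replicate 1 it was 0.97 with an adjusted p of 0.00675.

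Ebf2 encodes an early factor of the brown lineage that opens brown-specific enhancers (chr14:67233292-67430918, plus strand). Its values were 330.4, 358.4, 475.2 and 214.6 normalised counts in WT, and 401.1 in the unnumbered Cd36KO library and 353.3, 578.9 and 415.7 in Cd36KO replicates 2 to 4. The groups overlapped, with 2 WT libraries below all Cd36KO libraries and 1 Cd36KO library above all WT libraries (log2 fold change 0.34 ± 0.24 SE, adjusted p = 0.527, DESeq2).

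The positional markers Zic1 and Lhx8 were low, and neither changed past the threshold. Zic1, a zinc finger transcription factor (chr9:91358058-91365810, minus strand), had 10.83, 27.18, 34.11 and 37.59 normalised counts in WT and 35.65, 37.97, 18.41 and 18.30 in Cd36KO, with the unnumbered library first. Its log2 fold change was 0.00 ± 0.44 SE, with a 95% interval of -0.86 to 0.86, so that changes of the size measured for Ucp1 lie inside the interval. Lhx8, a LIM homeobox factor (chr3:154306294-154330659, minus strand), had 3.61, 13.59, 17.64 and 18.79 in WT and 13.37, 1.15, 4.09 and 12.97 in Cd36KO. Its raw counts ran from 1 to 19, DESeq2 set its adjusted p aside for low counts, and its log2 fold change was -0.74 ± 0.70 SE (exact permutation test, p = 0.229). For both genes WT replicate 1 was the lowest WT library, opposite to its place for Dio2, Ppargc1a, Prdm16, Kcnk3 and Pank1. When it was left out, the log2 fold change was -0.27 for Zic1, a change of sign, and -1.05 for Lhx8, and neither passed. Zic1 overlaps Zic4 on the other strand, which had 94 counts over the 8 libraries, and Elovl3 overlaps Pitx3, which had 4.

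Across the 10 genes, 9 had a higher mean normalised count in Cd36KO, Zic1 by 27.59 against 27.43. By mean CPM 8 were higher, since Zic1 was lower there, at 8.63 against 8.74. An adjusted p was given for 9 of the 10. Of these 9 genes, 1 was past the threshold, against 2.95% of all 9617 genes with an adjusted p, or 1.42% for genes higher and 1.53% for genes lower in Cd36KO. The median log2 fold change of the 9 was 0.51, against -0.01 over all genes tested. In all, 7 members had a mean of at least 50 normalised counts, and the groups did not overlap in 2 of them, Ucp1 and Kcnk3. For Kcnk3 this did not hold by CPM, where WT replicate 1 (958.8) lay above Cd36KO replicate 2 (874.7), and with total counts as size factors its adjusted p was 0.237. Of all 5528 genes with such a mean, 10.9% did not overlap and 6.91% did so with Cd36KO higher. Without WT replicate 1, 5 members passed (Ucp1, Prdm16, Ppargc1a, Dio2 and Kcnk3), against 3.36% of all genes tested with 1.06% higher and 2.3% lower in Cd36KO. No member passed with edgeR, which called 0.143% of 9793 genes (0.0408% higher and 0.102% lower), or with limma on the log2 values, which called none, although 1580 and 1542 genes had an unadjusted p below 0.05 in these tests and 1694 in DESeq2. Leaving out WT replicate 2, WT replicate 3 or the unnumbered Cd36KO library also left no member past the threshold, in fits that called 1.58%, 1.19% and 1.11% of all genes tested.

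**Figure D3:**
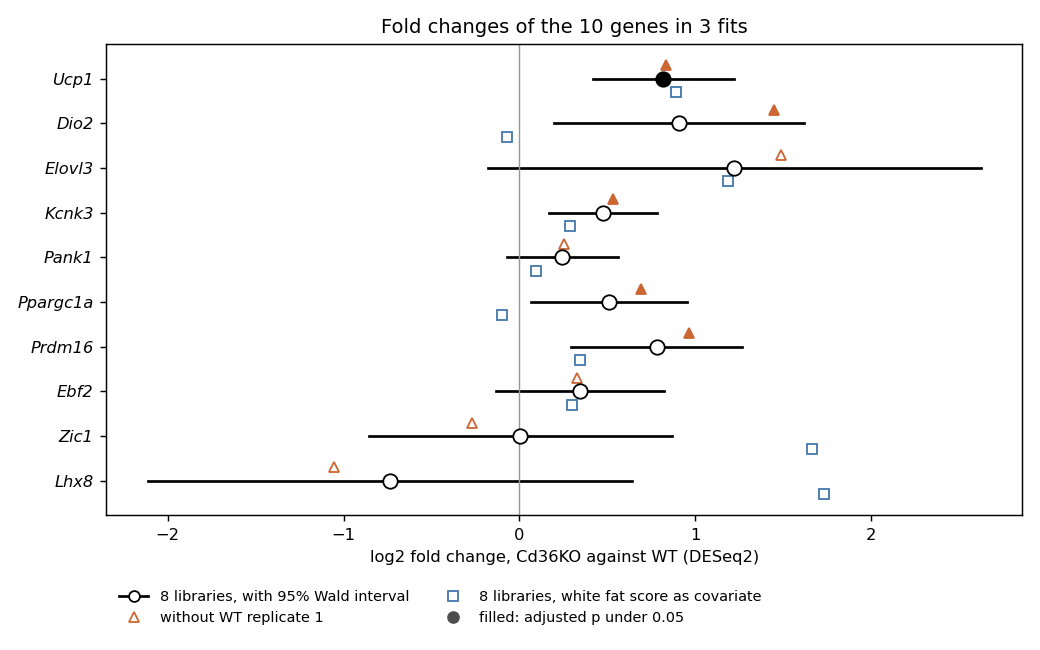
Log2 fold change of each gene, Cd36KO against WT, with its 95% interval, over all 8 libraries (circles), without WT replicate 1 (triangles) and with the white fat score as a covariate (squares); filled symbols have an adjusted p below 0.05. Only Ucp1 is past the threshold over all libraries, and the interval of Zic1 runs from -0.86 to 0.86.

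White fat markers were lower in the 5 libraries with the most Dio2, the Cd36KO libraries and WT replicate 1. The same libraries were the 5 highest for Ppargc1a, Prdm16 and Kcnk3. They were not for the other members, and for Ucp1 WT replicate 4 (7028 normalised counts) lay above WT replicate 1 (5527). White fat markers were at 1590 to 1849 CPM in WT replicates 2 to 4, where Dio2 was at 175.8 to 250.5 normalised counts. They were at 243.8 to 366.8 CPM in Cd36KO and 319.7 CPM in WT replicate 1, where Dio2 was at 294.4 to 792.2. Of the 10 white fat markers with an adjusted p, 8 fell and none rose (median log2 fold change -2.18), and all 10 fell without WT replicate 1. With edgeR, 4 fell. The lists were chosen with earlier results of these data known, so this count is not independent evidence of its direction, and that holds for the other lists too. Among the 8 were Hoxc8, a homeobox gene of white fat (205.5 ± 107.5 against 24.4 ± 14.4 normalised counts, adjusted p = 5.58e-08), and Lep, the hormone leptin (110.0 ± 51.6 against 19.8 ± 6.99, adjusted p = 9.58e-06). Sncg, a synuclein, was at -2.95 in log2 (adjusted p = 0.0217), Agt, angiotensinogen, at -2.74 (0.0022), Nnat, neuronatin, at -2.59 (0.00228) and Aldh1a1, a retinaldehyde dehydrogenase, at -1.81 (8.08e-05). The white fat score, the mean log2 CPM of these markers, was 2.88 to 3.45 in Cd36KO, 3.45 in WT replicate 1 and 5.25 to 5.55 in the other WT libraries, so that a fit with this score as a covariate sets the groups apart mainly by WT replicate 1 against the Cd36KO libraries. In that fit no member passed (adjusted p = 0.0612 for Ucp1), against 9.63% of all genes tested. The log2 fold changes were 0.89 for Ucp1, -0.07 for Dio2, 1.18 for Elovl3, 0.29 for Kcnk3 and 0.09 for Pank1. They were -0.10 for Ppargc1a, 0.35 for Prdm16, 0.30 for Ebf2, 1.66 for Zic1 and 1.73 for Lhx8. Zic1 had an unadjusted p of 0.0281 and no adjusted p there. None of 16 muscle markers passed, with or without WT replicate 1, and they had a median log2 fold change of -3.10 over all libraries. Their log2 fold changes without that library ran from -2.31 to -0.87. Dio2 was at 581.3 normalised counts in WT replicate 1, where muscle markers summed to 30133 CPM. In WT replicates 2 to 4 it was at 175.8, 250.5 and 194.9, where they summed to 4913, 333.6 and 4221 CPM. Dio2 in the unnumbered Cd36KO library was at 792.2 and the muscle markers at 2908 CPM. In Cd36KO replicates 2 to 4 Dio2 was at 522.4, 645.4 and 294.4, and the muscle markers at 62.69, 55.94 and 730.9 CPM. With a muscle score as a covariate the log2 fold change was 1.31 for Dio2 (adjusted p = 0.0617) and 1.06 for Ucp1 (adjusted p = 0.00267). Macrophage markers summed to 227.0 to 339.2 CPM in WT and 221.5 to 298.4 CPM in Cd36KO, and none of the 8 with an adjusted p passed (1 fell without WT replicate 1). Stromal markers summed to 1900 to 2585 CPM in WT and 1115 to 1459 CPM in Cd36KO without overlap. Of 10 stromal markers 2 fell and none rose, with and without WT replicate 1: Col1a2, a collagen chain (log2 fold change -1.10, adjusted p = 0.000724), and Gsn, the actin-severing gelsolin (-1.09, 0.00648). Of 12 pan-adipocyte markers 1 rose over all libraries, the glycerol-3-phosphate dehydrogenase Gpd1 (0.80, adjusted p = 0.0387), and 5 others fell and none rose without WT replicate 1, the fit in which 5 members passed. None of 9 endothelial or 3 Schwann cell markers passed. The most abundant markers that did not pass were at -2.82 (Acta1, adjusted p = 0.3505) and -3.64 (Ttn, 0.162) in log2 for muscle, at 0.19 (C1qa, 0.813) and 0.19 (Lyz2, 0.792) for macrophages, and at 0.41 (Kdr, 0.426) and 0.69 (Egfl7, 0.063) for endothelium. Acta1 was at -1.65 and Ttn at -1.54 without WT replicate 1. For Schwann cells Mbp was at -0.51 (adjusted p = 0.355), and for adipocytes the values were -0.37 (Car3, 0.588) and -0.65 (Scd1, 0.553). The part of these cells in the members' values was not tested further.

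**Figure D4:**
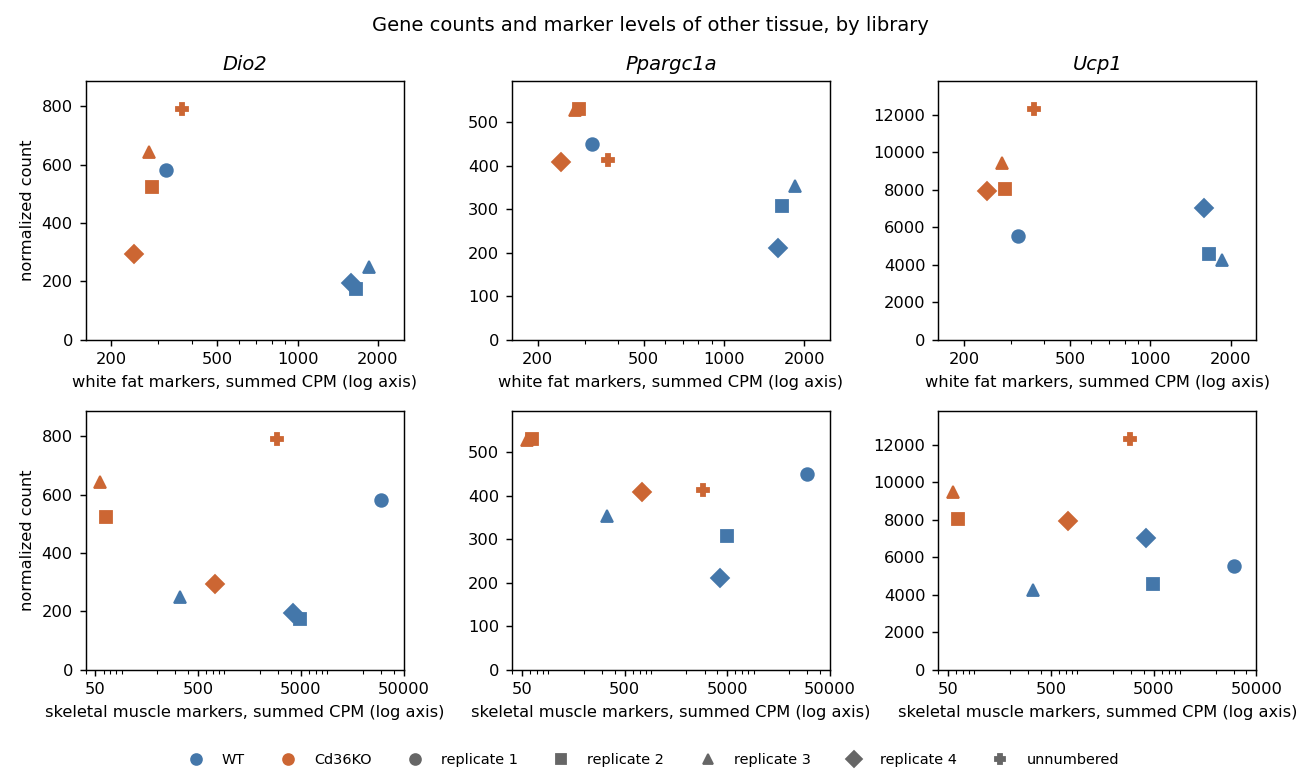
Normalised counts of Dio2, Ppargc1a and Ucp1 against the summed CPM of white fat markers (upper panels) and skeletal muscle markers (lower panels), both on log axes, with a point per library. WT replicate 1 (blue circle) lies with the Cd36KO libraries on the white fat axis, at 319.7 CPM, and alone at 30133 CPM on the muscle axis.

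Other genes that brown fat uses for thermogenesis were counted from lists of known genes. Of 18 effector and marker genes with an adjusted p, 5 rose and none fell, with a median log2 fold change of 0.54. They were Cidea, a lipid droplet protein (8451 ± 1429 against 16607 ± 2027 normalised counts, log2 fold change 0.97, adjusted p = 5.92e-06), Letmd1, a mitochondrial inner membrane protein (0.92, adjusted p = 0.00183), Clstn3, which has an adipocyte form at the lipid droplet (0.69, 0.0313), and the cytochrome c oxidase subunits Cox7a1 (0.59, 0.0273) and Cox8b (0.50, 0.0337). Without WT replicate 1, 4 of them passed and Cox7a1 did not (adjusted p = 0.0582). None passed with edgeR. The summed level of the list was 6619 to 8169 CPM in WT and 10490 to 13093 CPM in Cd36KO, so that the groups did not overlap.

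The regulators of the programme were mostly without a change past the threshold. Of 21 activators, none rose and 1 fell: Tbx15, a T-box factor, was at 30.2 ± 7.51 normalised counts in WT and 5.86 ± 1.07 in Cd36KO (log2 fold change -2.36, DESeq2 adjusted p = 0.000236, edgeR adjusted p = 0.0394). Cebpa (-0.13, adjusted p = 0.888) and Nfia (0.27, 0.440), adipogenic and brown fat factors, had the highest counts on this list. Of 12 repressors, Nrip1, the corepressor RIP140 that holds down Ucp1, fell from 447.6 ± 80.1 to 231.5 ± 33.9 (log2 fold change -0.95, adjusted p = 0.000208), and none rose. Ncor1 (-0.18, adjusted p = 0.565) and Nr1h3 (-0.01, 0.988), a nuclear corepressor and the receptor LXR alpha, did not pass. Both falls also passed without WT replicate 1, and that of Nrip1 had an adjusted p of 0.0621 with edgeR. Among 9 close relatives of the members none passed. Ppargc1b, the sister coactivator of Ppargc1a, had a log2 fold change of 0.24 (adjusted p = 0.684), and Ebf1, a relative of Ebf2, had -0.29 (0.509).

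Few genes of the inputs and substrate pathways passed. Of 14 thyroid hormone and adrenergic genes none passed, and the most abundant were Gnas, the stimulatory G protein subunit (log2 fold change 0.38, adjusted p = 0.457), and Prkar2b, a regulatory subunit of protein kinase A (-0.07, 0.846). Adrb3, the beta3-adrenergic receptor, was picked after its values were seen. It was at 238.3 to 1490 normalised counts in WT and 247.3 to 382.1 in Cd36KO (log2 fold change -1.59, adjusted p = 0.0614), and at -1.91 without WT replicate 1 (adjusted p = 3.96e-16). Gnas passed in that fit as well, at 0.67 (adjusted p = 0.00594). Of 7 genes of coenzyme A synthesis, Pank3, a relative of Pank1, fell from 1120 ± 458 to 518.7 ± 103.0 (log2 fold change -1.11, DESeq2 adjusted p = 0.0119). Its log2 fold change was -1.36 without WT replicate 1 (adjusted p = 1.78e-09), and with edgeR its adjusted p was 0.1205. Coasy, the last enzyme of this route (0.66, adjusted p = 0.181), and Ppcs, its second (0.55, 0.279), did not pass. Of 8 fatty acid elongation genes none passed. Elovl6 was at -0.33 (adjusted p = 0.690) and Hsd17b12 at 0.30 (0.529). Of 4 beige markers none passed, with Sp100 at -0.07 (adjusted p = 0.945) and Klhl13 at -0.30 (0.780).

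**Figure D5:**
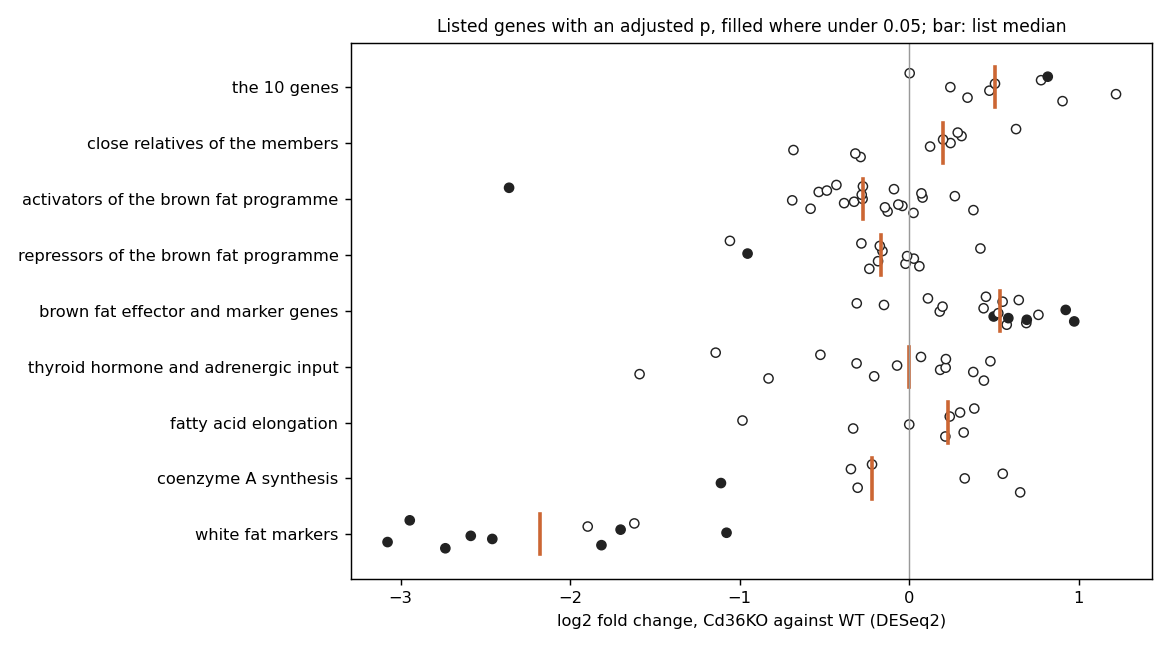
Log2 fold changes, Cd36KO against WT, of the genes with an adjusted p in each list, with filled points for those with an adjusted p below 0.05 and a bar at each list's median. The effector list lies mostly above 0 with 5 filled points, and the white fat list lies below 0 with 8.

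The genes most like Ucp1 over the 8 libraries, among 5528 genes with a mean of at least 50 normalised counts, were Mrpl2, Sco1, Ndufa11, Atp5o and Gpx8. Pearson's r on log2 counts was 0.981 for Mrpl2, a mitochondrial ribosomal protein, 0.980 for Sco1, a copper chaperone of cytochrome c oxidase, 0.973 for Ndufa11, a complex I subunit, 0.970 for Atp5o, an ATP synthase subunit, and 0.970 for Gpx8, a peroxidase of the endoplasmic reticulum. With each group centred on its own mean, r was 0.979, 0.946, 0.910, 0.897 and 0.896 in the same order. These are descriptions over 8 libraries that share size factors and, before centring, the difference between the groups. The genes named were picked as the highest of all 5528 in these same libraries, so every other gene is lower by selection. For the 6 other members with such a mean, r ran from 0.683 for Dio2 and 0.648 for Prdm16 to 0.136 for Ebf2. After centring it ran from 0.363 for Dio2 to -0.546 for Ebf2.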

How the data were processed

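Bulk RNA from brown fat of 4 WT and 4 Cd36KO mice was sequenced from digital mRNA libraries. The authors deposited raw counts per Ensembl gene and log2 values, which match log2(count divided by a size factor, plus 1). Their methods name bbduk, STAR, HTSeq-count and DESeq2 with mm10, whereas the submitters' processing notes name Trimmomatic, HISAT2, DESeq2 and GRCm38; which aligner made the deposited counts cannot be told. Strand setting, annotation release, use of molecular identifiers and read position along transcripts are not given in the sources used here, so levels per length assume reads along the whole exon model. Gene names and positions came from GENCODE M21 (31011 of 31053 IDs matched; the other 42 held 296 counts).

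Normalised counts are counts divided by DESeq2 median-of-ratios size factors. Groups were compared with DESeq2 1.42.0 (Wald test, default independent filtering at 0.1, Benjamini-Hochberg over all genes, threshold 0.05), the test of the study's methods. Alternatives were edgeR 4.0.16 (quasi-likelihood), limma 3.58.1 on the deposited log2 values, other size factors and filters, marker scores (mean log2 CPM, prior count 2) as covariates, and leaving out each library. Single genes were also tested by exact two-sided permutation of the 70 arrangements of normalised counts in SciPy 1.17.1. Each model was first tested on made-up counts with known changes. DESeq2 recovered 46% of 2-fold and 85% of 3-fold changes, and 7.09% of its calls were false. Of the 2-fold changes that they tested, edgeR recovered 52.1% and limma 51%, with 6.12% and 4.2% of calls false. The made-up counts held no library set apart like WT replicate 1. A gene without a call may therefore still differ. Depth was 2679785 to 4097953 counts per library; intervals are 95% Wald intervals of the fit.

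The members and lists were chosen with earlier results of these data known. The genes named were the 10 members, Cd36, up to 6 genes per list past the threshold (the largest changes), the 2 most abundant of a list where fewer than 2 passed, and the 5 genes with the highest correlation with Ucp1; Adrb3 was added after its values were seen. One gene that this rule names is not reported here. An unnumbered Cd36KO column was used as a Cd36KO library without number. The study gives 4 mice a group, but the labels do not tie libraries to mice, so p-values measure the spread between these libraries, which may be technical. No 2 replicates agreed within sampling noise.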

Additional observations from a re-analysis of the deposited data

Results flagged for a closer look

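The 10 member genes and 15 summed lists, 25 sets of values, were examined in each genotype for a library far from the other 3, which gave 50 groups. Chance would mark about 2.5 of the 50, in any library of either genotype. In all 4 were marked, each in WT replicate 1, and the sets are not independent of each other. The summed skeletal muscle markers were highest in it, at 30133 CPM against 333.6 to 4913 CPM. The summed Schwann cell markers were also highest in it, at 106.0 CPM against 34.75 to 44.79 CPM. The summed white fat markers were lowest in it, at 319.7 CPM against 1590 to 1849 CPM, and so were the genes of coenzyme A synthesis, at 432.0 CPM against 724.1 to 784.0 CPM. No member gene met this criterion in either group.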

How the results depend on the processing

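Ucp1 kept its direction in all 20 alternatives and passed the threshold in 14 (adjusted p from 6.03e-05 to 0.143). It did not pass with edgeR (log2 fold change 0.80), limma (0.82) or the white fat score (0.89). Per 1000 pan-adipocyte counts its ratio was 1.96 and that of Kcnk3 1.52, neither past 0.05, and in both WT replicate 1 made the overlap. With the white fat score the changes were -0.10 for Ppargc1a, -0.069 for Dio2 and 1.73 for Lhx8, all of opposite sign; this fit rests mainly on WT replicate 1, the only WT library with a score near those of Cd36KO. Zic1, at 0.00, was at 1.66 with the white fat score, 0.29 with pan-adipocyte size factors, -0.0082 with edgeR, -0.032 with total counts as size factors and -0.16 with the muscle score. Elovl3 was at 0.65 with limma, and with the muscle score Elovl3 was at 2.01, Ebf2 at 0.10 and Pank1 at 0.089. Prdm16 passed at 0.78 with independent filtering tuned for 0.05, chosen after seeing the data. The cause of these shifts was not tested.

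The number of members past the threshold was 1, and 0 with edgeR, limma or the white fat score, 2 with the tuned filtering (292 of 6717 genes, 4.35%), and 0 to 5 when a library was left out, in fits that called 1.11% to 8.71% of genes. The number of genes was 284, and 14 with edgeR, 0 with limma, 111 with pan-adipocyte size factors, 171 without independent filtering, 186 with the muscle score, 616 with the white fat score, and 70 to 498 when a library was left out. Of the calls, 48.2% were higher in Cd36KO, against 34.8% with total counts and 84.7% with pan-adipocyte size factors. The median of all genes moved to 0.20 with pan-adipocyte size factors and to 0.11 with the white fat score, and Ucp1 passed with the former. Leaving out a library gave 0.67 to 0.98 for Ucp1, 0.65 to 0.97 for Prdm16, 0.34 to 0.69 for Ppargc1a, 0.70 to 1.44 for Dio2, 0.39 to 0.56 for Kcnk3, 0.11 to 1.57 for Elovl3, 0.17 to 0.54 for Ebf2, -0.27 to 0.20 for Zic1, -1.10 to -0.39 for Lhx8 and 0.10 to 0.32 for Pank1. Prdm16 also passed without Cd36KO replicate 3, and Kcnk3 without Cd36KO replicate 2. Without division by length, 5 genes changed place in the order of levels.

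Replicate numbers 2 to 4 occur in both groups, but the labels tie no number to a shared litter or day, and deviations of libraries with a shared number correlated at -0.127, 0.422 and 0.141, so the numbers were not taken to pair them. With the replicate block on these 6 libraries, 3 members and 221 genes passed (1.95% of those tested). The members were Ucp1 (0.71), Ppargc1a (0.77) and Dio2 (1.18), while Zic1 (-0.47), Lhx8 (-1.83) and Elovl3 (0.12) did not pass. The same 6 libraries without the block gave 4 members and 262 genes (2.31%). The members were Ucp1 (0.68), Prdm16 (0.99), Ppargc1a (0.75) and Dio2 (1.24), and Zic1 was at -0.42 without passing. Of the 3 numbers, only replicate 3 correlated best with its own number.

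Depth limits Lhx8, Elovl3 and Zic1, whose raw counts were at most 19, 86 and 38 in a library.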
